A study of Mus musculus with 6 samples.

Results

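The glucose transporters and hexokinases described here are 9 genes of glucose entry and trapping, out of 19844 genes in the deposited expression table, and they were taken by symbol. They comprise the carriers Slc2a1, Slc2a2, Slc2a3 and Slc5a1, the hexokinase family members Hk1, Hk2, Hk3 and Hkdc1, and the glucose-6-phosphatase gene G6pc3. All 9 were found once each. Their NCBI Gene identifiers in the table are 20525 for Slc2a1 (chromosome 4), 20526 for Slc2a2 (chromosome 3), 20527 for Slc2a3 (chromosome 6), 20537 for Slc5a1 (chromosome 5), 15275 for Hk1 (chromosome 10), 15277 for Hk2 (chromosome 6), 212032 for Hk3 (chromosome 13), 216019 for Hkdc1 (chromosome 10) and 68401 for G6pc3 (chromosome 11). Poly-A RNA of distal colon was sequenced from C57BL6 mice 17 days into AOM/DSS treatment, in which the carcinogen azoxymethane is combined with dextran sulfate sodium, an agent that injures the colon lining. The mice were ChREBP knockouts (n = 3) or wild type (n = 3), and both genotypes received AOM/DSS, so every value refers to treated colon. ChREBP, encoded by Mlxipl, is a transcription factor that responds to glucose metabolites. The labels give neither the deleted part of Mlxipl nor the age of the mice, and they do not say whether the deletion was whole-body or limited to a cell type.

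Glucose crosses the cell membrane through facilitative carriers of the SLC2 (GLUT) family, which run down the gradient, or through sodium-coupled carriers of the SLC5 (SGLT) family, which can run against it. Hexokinases then phosphorylate glucose to glucose 6-phosphate, which no longer leaves through these carriers, and glucose-6-phosphatases reverse that step. Colon epithelium draws much of its energy from butyrate, whereas glucose uptake and hexokinase 2 are well known for their rise in many tumours. ChREBP is activated by phosphorylated sugars, so these proteins act upstream of it, and in liver and small intestine ChREBP in turn regulates several sugar-handling genes.

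Promoter sequences of the members are shown first for 3 genes, because ChREBP and the clock factors CLOCK and BMAL1 recognise the E-box CACGTG, and hypoxia-inducible factors recognise sites with the core ACGTG. The sequences are from RefSeq on build GRCm38.p6, not the mm39 build of the expression values, and run from 250 bases before to 50 bases after the transcription start, on the gene's strand. Slc5a1 and G6pc3 are shown as the members that hold an E-box, in capitals, and Hk2, the member whose log2 level varied most between libraries, is shown with its ACGTG matches (either strand) in capitals.
Slc5a1 (chr5:33103969-33104268, + strand): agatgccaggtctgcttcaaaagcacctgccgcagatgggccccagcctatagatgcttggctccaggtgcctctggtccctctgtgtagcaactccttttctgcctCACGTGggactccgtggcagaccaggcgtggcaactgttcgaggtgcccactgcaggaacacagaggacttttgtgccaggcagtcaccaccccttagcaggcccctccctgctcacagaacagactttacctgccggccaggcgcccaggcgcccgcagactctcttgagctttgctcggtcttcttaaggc
G6pc3 (chr11:102189449-102189748, + strand): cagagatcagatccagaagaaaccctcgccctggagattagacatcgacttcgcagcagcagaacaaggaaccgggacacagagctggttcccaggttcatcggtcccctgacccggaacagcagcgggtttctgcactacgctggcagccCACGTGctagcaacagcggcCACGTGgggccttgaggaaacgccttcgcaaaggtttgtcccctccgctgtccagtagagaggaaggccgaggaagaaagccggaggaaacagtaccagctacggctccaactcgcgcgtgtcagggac
Hk2 (chr6:82774405-82774704, - strand): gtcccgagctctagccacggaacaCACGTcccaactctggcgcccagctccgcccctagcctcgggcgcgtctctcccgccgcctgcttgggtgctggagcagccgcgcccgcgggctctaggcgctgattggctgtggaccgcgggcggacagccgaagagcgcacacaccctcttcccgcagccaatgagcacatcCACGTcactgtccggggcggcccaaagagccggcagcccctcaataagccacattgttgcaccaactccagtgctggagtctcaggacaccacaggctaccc
Of the 8 members with an entry, 2 held CACGTG, against 7.15% of 32851 promoters. The match in Slc5a1 begins 143 bases before the start, and those in G6pc3 begin 99 and 79 bases before it. ACGTG, on either strand and including the E-box matches, was in 6 of the 8 members against 19.6% of all promoters, and Hk1 counted once for either of its 2 entries. The matches of Hk1 lie in a single entry and after the start. Shares over all promoters count entries and not genes, so the units differ. The matches in Hk2 begin 226 and 52 bases before the start. The carbohydrate response element to which ChREBP binds in other genes is a pair of E-boxes with 5 bases between them. Its perfect form was in none of the 8 and in 0 of all promoters, and the D-box TTATGTAA was in none of the 8 and in 0.94% of all promoters, both strands searched. These are matches of letters, not measured binding.

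Values are FPKM, fragment numbers scaled to transcript length and library size, so levels can be set side by side between genes. Group values are means ± SD with n = 3 mice per genotype. Fold changes are knockout minus wild type of log2(FPKM + 1), a scale that understates the change of low genes, tested with limma across the 13247 genes that reached 1 FPKM in 3 or more libraries. The Benjamini-Hochberg adjusted p over all those genes was 0.9995 for each of the 6 members that passed this filter, so none passed the threshold of 0.05. Of all genes tested 0.0151% were called (2 genes, neither a member), 0.00755% as higher and 0.00755% as lower in the knockout. The members below the filter were Slc2a2, Hk3 and Hkdc1. In none of the 9 did the knockout values lie wholly outside the wild-type values, as they did for 8.67% of all genes tested.

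Each library held an estimated 17700000 to 18475000 reads. The FPKM values summed to 478500 in knockout replicate 2 and to between 439107 and 447327 in the other libraries. Mlxipl was lower in every knockout library, at 3.40, 5.66 and 5.04 FPKM against 5.84, 7.49 and 7.27 in wild type, and was not abolished (log2 fold change -0.48, SE 0.18, limma adjusted p = 0.9995). All 6 mice are labelled female, but Eif2s3y, on the Y chromosome, was between 23.28 and 30.75 FPKM and Xist, the X-inactivation RNA, between 0.02 and 0.04. Libraries of the wild type also stood apart from one another. The clock output transcript Dbp read 5.77, 0.94 and 6.14 FPKM in the knockout and 57.41, 43.06 and 0.95 in wild type, so wild-type replicate 3 lay beside the knockouts. Wild-type replicate 3 was also the library with transcripts of pancreas, such as the insulin gene Ins2 at 12.10 FPKM and the trypsinogen gene Prss2 at 89.05, against 0.13 and 0.21 FPKM or less in the other 5. Colon epithelial markers were abundant throughout, and their summed level over 10 genes was 6679 to 7783 FPKM in knockout and 6433 to 7638 in wild type. In whole tissue, fewer cells of a type and less transcript per cell cannot be told apart.

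**Figure D1:**
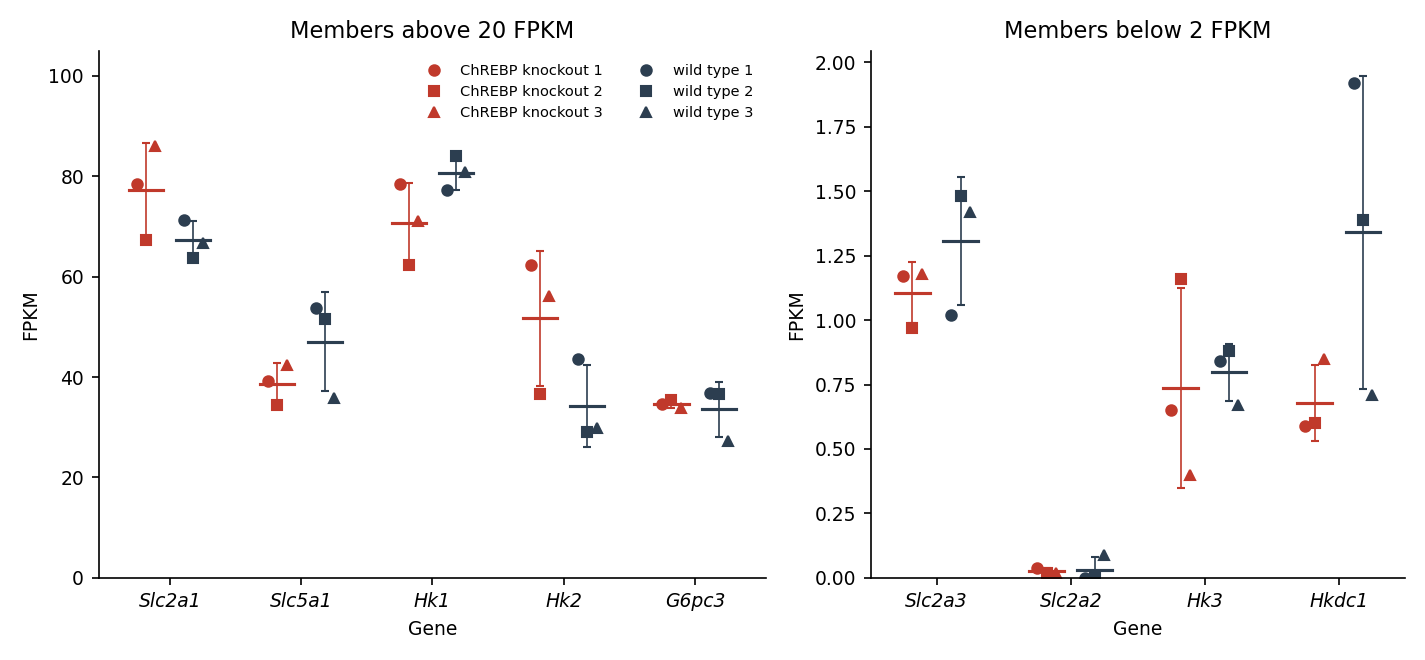
FPKM of the 9 members in each library (points, shaped by replicate number), with the mean as a line and the SD as a bar, for 3 ChREBP knockout mice (red, left of each pair) and 3 wild-type mice (dark, right). Hk1, Slc2a1, Slc5a1, Hk2 and G6pc3 were above 20 FPKM, the other 4 members were below 2 FPKM, and the points of both genotypes overlap for every gene.

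The members fell into an abundant and a scarce set. In the knockout the order by mean was Slc2a1 (77.2), Hk1 (70.6), Hk2 (51.7), Slc5a1 (38.7), G6pc3 (34.6), Slc2a3 (1.11), Hk3 (0.737), Hkdc1 (0.680) and Slc2a2 (0.0267 FPKM). In wild type it was Hk1 (80.7), Slc2a1 (67.2), Slc5a1 (47.1), Hk2 (34.2), G6pc3 (33.6), Hkdc1 (1.34), Slc2a3 (1.31), Hk3 (0.797) and Slc2a2 (0.0300 FPKM). Within the knockout the ranges of neighbours overlapped along the whole abundant set, and from Slc2a3 to Hkdc1. In wild type Hk1 lay wholly above Slc2a1 and Slc2a1 wholly above Slc5a1, while Slc5a1, Hk2 and G6pc3 overlapped in turn. G6pc3 was separated from the next gene down in either genotype.

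Slc2a1 encodes GLUT1, the widely expressed carrier for basal glucose uptake. It read 78.40, 67.21 and 86.04 FPKM in knockout replicates 1 to 3 and 71.27, 63.72 and 66.76 FPKM in wild type. Knockout replicates 1 and 3 were above every wild-type library, and replicate 2 lay within the wild-type range. The means were 77.2 ± 9.47 FPKM in the knockout and 67.2 ± 3.80 in wild type, a log2 fold change of 0.19 (SE 0.11, 95% interval -0.07 to 0.45) that did not pass the test. Without knockout replicate 2 it was 0.29, and without knockout replicate 3 it was 0.11, neither called.

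Slc5a1 encodes SGLT1, the apical carrier that takes up glucose and galactose with sodium. It read 39.24, 34.38 and 42.46 FPKM in the knockout and 53.79, 51.56 and 35.82 in wild type. Wild-type replicates 1 and 2 stood above the other 4 libraries, and wild-type replicate 3 lay among the knockouts. The means were 38.7 ± 4.07 FPKM in the knockout and 47.1 ± 9.79 in wild type, with a log2 fold change of -0.26 (SE 0.16, interval -0.64 to 0.12), not called. The value depended on which wild-type libraries entered. It was -0.44 without wild-type replicate 3 and -0.15 without wild-type replicate 1, and with wild-type replicate 3 as the only wild-type library it was 0.10 (SE 0.18).

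The high Slc5a1 libraries were the high clock libraries. Dbp, Tef, Hlf and Ciart, transcripts with strong daily rhythms driven by the circadian clock, had a mean log2(FPKM + 1) of 2.17, 1.41 and 2.52 in knockout replicates 1 to 3 and 4.44, 4.14 and 1.31 in wild type. With this score added to the model, a choice made after the values were seen, the log2 fold change of Slc5a1 was -0.02 (SE 0.10). The score's genes were singled out for the same split of the wild-type libraries, so this value had to move towards 0 and is no test of the clock, whose part in Slc5a1 was not tested. Hkdc1 and the fructose carrier Slc2a5 were placed alike, and the share of all genes placed so was not counted. Slc2a5, which encodes GLUT5, read 0.70, 0.61 and 0.78 FPKM in the knockout and 2.53, 1.96 and 0.60 in wild type, too low to be tested. The labels used here do not give the hour of collection.

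**Figure D2:**
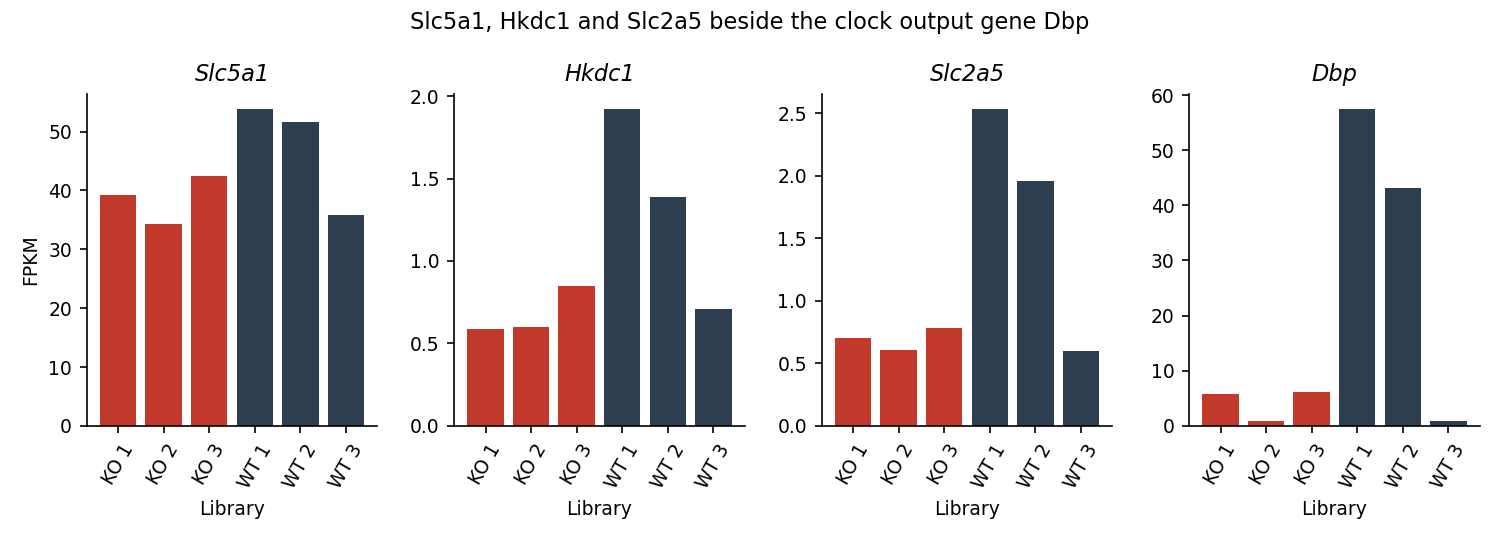
FPKM of Slc5a1, Hkdc1, Slc2a5 and Dbp in each library (bars, 3 ChREBP knockout in red, 3 wild type in dark). In all 4 panels wild-type replicates 1 and 2 are the tallest bars, with Slc5a1 at 53.79 and 51.56 FPKM, and wild-type replicate 3 is close to the knockout libraries.

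The remaining carriers were scarce. Slc2a3, which encodes GLUT3, a high-affinity carrier of neurons and leukocytes, read 1.17, 0.97 and 1.18 FPKM in the knockout and 1.02, 1.48 and 1.42 in wild type. The groups overlapped, and the log2 fold change was -0.13 (SE 0.14, interval -0.44 to 0.19), not called. About 69.0 to 103.7 reads per library lay behind these values. Its range was -0.05 with a pseudocount of 5 to -0.22 without wild-type replicate 1, and it was -0.08 without knockout replicate 2, -0.07 without wild-type replicate 2 and -0.21 with a pseudocount of 0.1.

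Slc2a2 encodes GLUT2, the low-affinity carrier of liver, pancreatic beta cells and small intestinal enterocytes. It was at 0.04, 0.02 and 0.02 FPKM in the knockout and was listed at 0, 0 and at 0.09 in wild type, with at most about 8.9 reads in a library. The highest value was in wild-type replicate 3, the library that held Ins1 at 3.83 and Ins2 at 12.10 FPKM, and the part of pancreatic cells in it was not tested. Summed markers of liver and pancreas were 113.0 to 185.4 FPKM in the knockout and 138.0 to 359.9 in wild type, most of it from Cela1. An exact permutation test over libraries, two-sided, gave p = 1 for Slc2a2, and the smallest p it allows with 3 against 3 is 0.1. Of the small intestinal markers Lct, Sis and Apoa4 were at or near 0 (0.13 FPKM or less in all 6 libraries), whereas Rbp2 was between 18.08 and 43.17 and Fabp6 between 2.27 and 8.14. The sum over the 5 matched markers was 20.5 to 50.1 FPKM in knockout and 40.1 to 41.4 in wild type.

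Together Slc2a1, Slc2a2, Slc2a3 and Slc5a1 summed to 118.9, 102.6 and 129.7 FPKM in the knockout and 126.1, 116.8 and 104.1 in wild type. Slc2a1 made up 66.0%, 65.5% and 66.3% of that sum in knockout and 56.5%, 54.6% and 64.1% in wild type. The ratio of Slc2a1 to Slc5a1 was 1.998, 1.96 and 2.03 in the knockout and 1.33, 1.24 and 1.86 in wild type. The knockout ratios were close to one another (1.99 ± 0.0360), and the wild-type ratios (1.48 ± 0.340) were spread by wild-type replicate 3, the nearest to the knockouts. Neither ratios nor shares overlapped between genotypes, by 1.96 against 1.86 at the nearest ratios. How often the ratios of other genes to Slc5a1 separate was not counted, so this is no test of genotype.

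Hexokinase 1, the housekeeping isoform, was the main hexokinase transcript in every library. Hk1 read 78.43, 62.29 and 71.17 FPKM in the knockout and 77.23, 84.11 and 80.86 in wild type. Knockout replicates 2 and 3 were below every wild-type library, and knockout replicate 1 was above the lowest of them. The means were 70.6 ± 8.08 FPKM in the knockout and 80.7 ± 3.44 in wild type, with a log2 fold change of -0.20 (SE 0.11, interval -0.44 to 0.05), not called. It was -0.11 without knockout replicate 2, not called. The long non-coding gene Hk1os overlaps Hk1 and read between 2.37 and 3.30 FPKM, and the labels name no step that keeps strand.

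Hexokinase 2, an inducible isoform that binds mitochondria and is abundant in muscle, fat and many tumours, showed the largest log2 fold change of the 6 tested members. Hk2 read 62.40, 36.59 and 56.14 FPKM in the knockout and 43.57, 29.13 and 29.84 in wild type. Knockout replicates 1 and 3 were above every wild-type library, while knockout replicate 2 was below wild-type replicate 1. The means were 51.7 ± 13.5 FPKM in the knockout and 34.2 ± 8.14 in wild type, a ratio of 1.51. The log2 fold change was 0.57 (SE 0.22), with an interval of 0.06 to 1.09 and an unadjusted limma p of 0.0340. That p was under 0.05 for 3.40% of genes tested, and for 1 of the 6 tested members, and Hk2 was not called over all genes (limma adjusted p = 0.9995). A larger log2 fold change in either direction was found for 1.12% of genes tested.

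Hk2 also varied more between libraries than most genes did. Its SD of log2(FPKM + 1) over the 6 libraries was 0.45, and 3.63% of genes tested had a larger one. The highest library was 2.14 times the lowest, and Hk1, Slc2a1 and G6pc3 each spanned a ratio of 1.35. With the clock score in the model the log2 fold change of Hk2 was 0.76 (SE 0.24, limma adjusted p = 0.707), and with wild-type replicate 3 as the only wild-type library it was 0.74 (SE 0.30). It was positive in all 18 alternatives, between 0.42 without knockout replicate 1 and 0.80 without knockout replicate 2, and was not called in any. The changes of filter, variance trend, robust prior and replicate block cannot move this estimate, so its sign there adds nothing. Knockout replicate 1, the highest Hk2 library, was also the highest for summed squamous epithelium markers. The sums were 31.7, 22.6 and 12.8 FPKM in the knockout and 11.5, 12.1 and 7.83 in wild type, 2 groups that did not overlap. Sprr1a gave most of each sum, at 24.88, 19.95 and 10.97 FPKM in the knockout and 9.05, 8.89 and 6.73 in wild type. Its groups did not overlap, as for 4.53% of genes tested in this direction, while those of every other squamous marker overlapped. Knockout replicate 1 was the highest as well for summed adipocyte markers, at 4.33, 0.700 and 1.62 FPKM in the knockout and 2.33, 0.350 and 1.58 in wild type. Cidec, at 2.49 FPKM in knockout replicate 1, was the sole adipocyte marker to reach 1 FPKM in any library. Plin1 and Retn were highest in knockout replicate 1 too, whereas Adipoq was highest in wild-type replicate 1 (0.87 FPKM). The part of squamous or fat cells in Hk2 was not tested.

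Hexokinase 3 and the hexokinase domain containing gene Hkdc1 were low. Hk3, an isoform of myeloid cells, read 0.65, 1.16 and 0.40 FPKM in the knockout and 0.84, 0.88 and 0.67 in wild type, with about 23.4 to 67.1 reads per library. The knockout values lay on either side of the wild-type ones (exact permutation test, two-sided, p = 0.7, where 0.1 is the smallest possible). Summed markers of neutrophils and macrophages (10 genes) were 180.1, 273.9 and 175.3 FPKM in the knockout and 182.1, 226.1 and 256.4 in wild type. Knockout replicate 2 had the highest Hk3 and the highest sum, most of it from Lyz2 (211.65 FPKM there). Csf3r was highest in that library as well. The other listed markers were not: Itgam, Cd68, Adgre1 and Csf1r were highest in wild-type replicate 3. Ptprc and Cxcr2 were highest in wild-type replicate 2, and S100a8 and S100a9 in knockout replicate 1. The part of those cells in Hk3 was not tested. Hk3 overlaps the span of Unc5a, which read between 2.66 and 3.68 FPKM.

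Hkdc1, next to Hk1 on chromosome 10, encodes a low-activity hexokinase of epithelia. It read 0.59, 0.60 and 0.85 FPKM in the knockout and 1.92, 1.39 and 0.71 in wild type, with about 37.9 to 122.7 reads per library. Wild-type replicates 1 and 2 were above the other 4 libraries, the order already seen for Slc5a1, and wild-type replicate 3 was below knockout replicate 3. The means were 0.680 ± 0.147 FPKM in the knockout and 1.34 ± 0.607 in wild type. The difference of log2(FPKM + 1) was -0.45, and the groups overlapped (exact permutation test, two-sided, p = 0.2, where 0.1 is the smallest possible, so the test could not reach 0.05). How reads shared between the hexokinase paralogs were divided is not given in the sources used here.

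The 4 hexokinase genes summed to 142.1, 100.6 and 128.6 FPKM in the knockout and 123.6, 115.5 and 112.1 in wild type, so the sum overlapped. Hk2 made up 43.9%, 36.4% and 43.7% of it in the knockout and 35.3%, 25.2% and 26.6% in wild type. The ratio of Hk2 to Hk1 was 0.796, 0.587 and 0.789 in the knockout and 0.564, 0.346 and 0.369 in wild type. Every knockout ratio was above every wild-type one, by 0.587 against 0.564 at the nearest pair. This pair was chosen with its values known, and of the ratios of other tested genes to Hk1 16.5% had all knockout values above all wild-type ones.

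**Figure D3:**
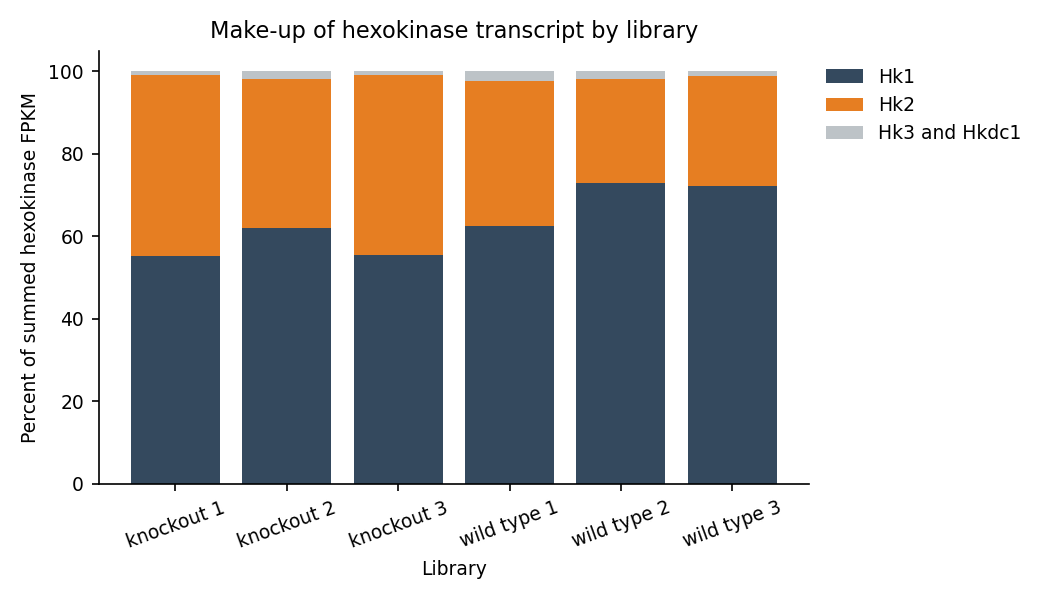
Share of the summed FPKM of Hk1, Hk2, Hk3 and Hkdc1 taken by each, in percent, for 3 ChREBP knockout and 3 wild-type libraries (stacked bars). Hk2 takes 36.4% to 43.9% in the knockout libraries and 25.2% to 35.3% in the wild-type ones, and Hk3 with Hkdc1 stays below 2.3% in each.

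G6pc3, the widely expressed glucose-6-phosphatase of the endoplasmic reticulum, had the smallest SD relative to its mean of the 9 members in the knockout. It read 34.56, 35.52 and 33.79 FPKM there and 36.84, 36.54 and 27.29 in wild type. Wild-type replicate 3 was the lowest library, and the others lay close together, with wild-type replicates 1 and 2 the highest. The means were 34.6 ± 0.867 FPKM in the knockout and 33.6 ± 5.43 in wild type, with a log2 fold change of 0.06 (SE 0.13, interval -0.24 to 0.35), not called. The sign turned with wild-type replicate 3: without it the value was -0.08 and with it as the only wild-type library 0.33. Without wild-type replicate 1 or 2 it was 0.13 and 0.12, and it was 0.21 with the clock score.

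The transcripts nearest in profile to the most variable of the tested members, Hk2 and Slc5a1, were found by the root mean square difference of log2(FPKM + 1), after removing each gene's mean over the 6 libraries, among 8982 genes at a mean of 5 FPKM or more. For Hk2 they were Igfbp5, which encodes a binding protein of insulin-like growth factors (difference 0.15), Rlf, a zinc finger gene (0.21), and Itgb6, the integrin beta 6 subunit gene (0.22). Igfbp5 read 61.48, 42.17 and 60.69 FPKM in the knockout and 41.88, 37.49 and 35.67 in wild type. For Slc5a1 they included Naf1, a gene of ribonucleoprotein assembly (0.06), and Cdca7 (0.08). Naf1 read 8.75, 7.54 and 9.31 FPKM in the knockout and 11.37, 10.37 and 7.25 in wild type. Hk2 and Slc5a1 themselves were 0.48 apart.

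Other hexose carriers were mostly low in this tissue. Of 16 listed, 15 were in the table and 7 were tested, 5 with a log2 fold change above 0 and 2 below, at a median of 0.04, beside a median of 0.01 over all genes. None was called in either direction. Slc50a1, a SWEET-family carrier, was the most abundant at 54.9 ± 5.05 FPKM in the knockout and 52.9 ± 2.29 in wild type. Slc2a4, which encodes the insulin-responsive GLUT4 of muscle and fat, read 8.35, 10.41 and 13.53 FPKM in the knockout and 7.96, 9.31 and 7.58 in wild type (log2 fold change 0.32, SE 0.17).

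Knockout replicate 3 was the highest library for Slc2a4 and for summed smooth muscle markers, which were 2632, 2485 and 3832 FPKM in the knockout and 2326, 3127 and 2631 in wild type. Summed skeletal muscle markers were 11.2 to 16.6 FPKM in knockout and 9.35 to 16.6 in wild type. Among them Myh1 and Myh4, genes of fast myosins, were at 0.04 FPKM or less. In contrast, Ckm was between 4.53 and 11.23 FPKM and Acta1 between 2.30 and 6.74. Ckm and Myh2 (0.22 to 0.55 FPKM), like Slc2a4, were highest in knockout replicate 3. By contrast Acta1 and Tnnt3 (0.88 to 1.67 FPKM) were highest in wild-type replicate 2. Mylpf, below the filter, read 0.82, 1.30 and 1.14 FPKM in the knockout and 0.68, 0.55 and 0.54 in wild type. Its groups did not overlap, as for 4.53% of genes tested in this direction. The lipid droplet gene Plin1, an adipocyte marker, was at 0.23 FPKM or less, and Cidec, another, was between 0.30 and 2.49 FPKM. The part of these cells in Slc2a4 was not tested.

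Slc5a9, which encodes the mannose and glucose carrier SGLT4, read 7.30, 3.94 and 2.84 FPKM in the knockout and 3.13, 3.26 and 2.84 in wild type, so its log2 fold change of 0.41 (SE 0.26) came with 1 high library, knockout replicate 1. That is also the library with the highest summed squamous markers, whose part in Slc5a9 was not tested. Slc2a13, the proton and myo-inositol carrier gene, was at 8.53 ± 1.21 FPKM in the knockout and 8.34 ± 1.86 in wild type. Slc2a8 was at 5.58 ± 1.25 FPKM in the knockout and 5.38 ± 0.732 in wild type, Slc2a10 at 2.52 ± 0.844 FPKM in the knockout and 3.11 ± 0.336 in wild type, and Slc2a9, a urate carrier gene, at 1.45 ± 0.344 FPKM in the knockout and 1.58 ± 0.140 in wild type. Slc2a6 and Slc2a12 were below the filter at means of 0.893 and 0.963 FPKM in the knockout and 0.960 and 0.730 in wild type. Slc2a7, Slc5a2, Slc5a4b, Slc5a10 and Slc5a11 did not exceed 0.29 FPKM in any library, so the renal carrier SGLT2, encoded by Slc5a2, was at or near 0.

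The other glucose-6-phosphatase transcripts were below 1 FPKM in every library, far under G6pc3. G6pc, the phosphatase gene of liver and kidney, did not exceed 0.02 FPKM in any library, and the islet phosphatase gene G6pc2 did not exceed 0.30. Adpgk, which encodes an ADP-dependent enzyme that phosphorylates glucose, was at 10.9 ± 0.885 FPKM in the knockout and 10.9 ± 1.70 in wild type.

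The SLC37 family carries sugar phosphates across internal membranes. Slc37a4, which encodes the glucose 6-phosphate carrier of the endoplasmic reticulum that serves G6pc3, was at 13.3 ± 1.98 FPKM in the knockout and 12.9 ± 1.62 in wild type. Slc37a1 was at 55.2 ± 4.48 FPKM in the knockout and 49.9 ± 8.32 in wild type, and Slc37a3 at 14.5 ± 0.460 FPKM in the knockout and 14.6 ± 1.65 in wild type. Slc37a2 varied most, at 15.67, 73.00 and 62.86 FPKM in the knockout and 42.10, 36.72 and 79.65 in wild type (log2 fold change -0.25, SE 0.55). Of the 9 genes listed as makers, breakers and carriers of glucose 6-phosphate, 5 were tested, 3 positive and 2 negative with a median of 0.01, and none was called.

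Enzymes that use glucose 6-phosphate were all expressed. Of 6 tested, 1 lay above 0 and 5 below it, at a median log2 fold change of -0.11, and none was called. Gpi1, the isomerase gene of glycolysis, was at 253.6 ± 10.8 FPKM in the knockout and 238.8 ± 7.33 in wild type. G6pdx, which encodes the first enzyme of the pentose phosphate pathway, was at 40.0 ± 2.84 FPKM in the knockout and 45.4 ± 4.41 in wild type, and its endoplasmic reticulum counterpart H6pd at 10.9 ± 2.48 FPKM in the knockout and 11.6 ± 0.867 in wild type. The phosphoglucomutase genes Pgm1 and Pgm2, on the route to glycogen, were both above 20 FPKM, Pgm1 at 42.3 ± 5.30 FPKM in the knockout and 48.5 ± 5.25 in wild type and Pgm2 at 25.6 ± 2.16 FPKM in the knockout and 25.9 ± 1.16 in wild type, and Pgm2l1 was at 3.10 ± 0.257 FPKM in the knockout and 3.45 ± 0.432 in wild type.

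**Figure D4:**
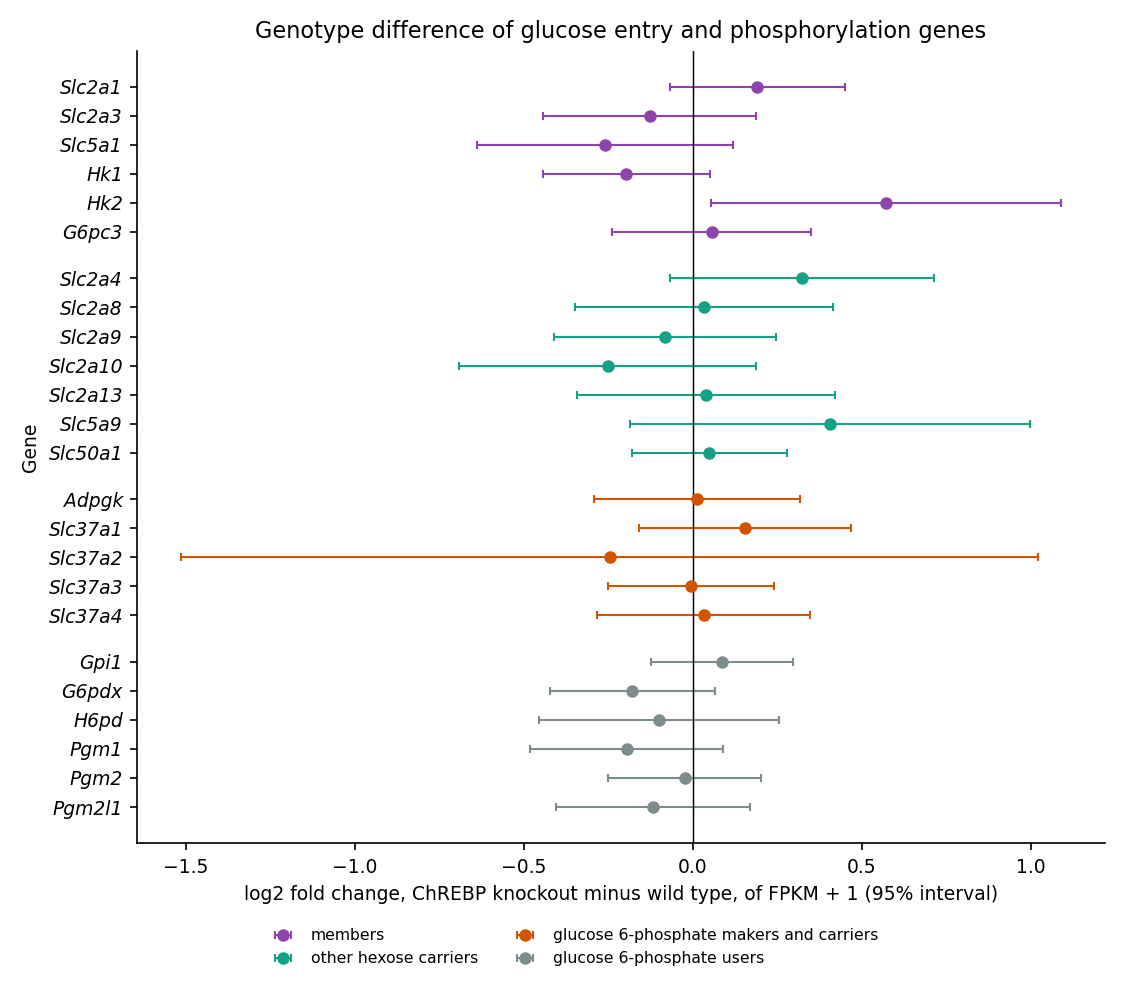
Log2 fold change, ChREBP knockout minus wild type, of FPKM + 1 with its 95% limma interval (points and bars) for the 6 tested members and 18 related genes. Hk2, at 0.57, is the point farthest from 0 and the sole one whose interval (0.06 to 1.09) does not include 0. The intervals are not adjusted for the number of genes, and Hk2 was not called (limma adjusted p = 0.9995).

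Genes that act on the carriers and hexokinases were not called either. Of 13 tested, 6 lay above 0 and 7 below it on the log2 scale, at a median of -0.03. Sgk1, a kinase that raises SGLT1 and GLUT1 at the cell surface, read 27.58, 34.41 and 58.36 FPKM in the knockout and 53.48, 56.00 and 59.47 in wild type (log2 fold change -0.55, SE 0.24). Knockout replicates 1 and 2 were below all wild-type libraries and replicate 3 lay within their range. Tbc1d4, the Rab GTPase-activating protein gene of GLUT4 traffic, was at 2.02 ± 0.180 FPKM in the knockout and 2.49 ± 0.235 in wild type, with groups that did not overlap, as for 4.14% of all genes tested in this direction. Tigar, which encodes a phosphatase that limits glycolysis, was at 6.22 ± 0.182 FPKM in the knockout and 7.09 ± 0.821 in wild type, and Stom, encoding the GLUT1-binding membrane protein stomatin, at 95.8 ± 13.5 FPKM in the knockout and 81.6 ± 22.2 in wild type.

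Hypoxia-inducible genes were listed because hypoxia-inducible factors are known to drive Slc2a1 and Hk2. Of 16 tested, 13 lay above 0 and 3 below it, beside 6986 of 13247 above 0 over all genes tested. The median log2 fold change was 0.09 beside 0.01 over all genes, and none was called. Groups did not overlap for 2 of them, both higher, where 4.53% of genes tested were higher in this way. The list was made with earlier results of these data known, so its counts are no test of hypoxia. Ankrd37 read 16.15, 16.19 and 23.31 FPKM in the knockout and 8.50, 3.74 and 2.46 in wild type, a log2 fold change of 1.84 (SE 0.34, limma adjusted p = 0.885). Adm, the adrenomedullin gene, was at 5.85 ± 0.422 FPKM in the knockout and 4.09 ± 0.441 in wild type.

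Egln3, which encodes a prolyl hydroxylase that is itself induced by hypoxia, read 61.29, 44.48 and 79.61 FPKM in the knockout and 59.17, 34.33 and 26.53 in wild type (log2 fold change 0.65, SE 0.30). As for Hk2, Slc2a1 and Slc5a1, the lowest knockout library was replicate 2 and the highest wild-type library was replicate 1, and the groups overlapped. Slc5a1 had this order with a log2 fold change of -0.26, and how many of all genes have it was not counted. Slc16a3, a lactate exporter gene, was at 9.41 ± 4.68 FPKM in the knockout and 5.74 ± 0.963 in wild type, with its high value in knockout replicate 1. Their part in the values of Hk2 and Slc2a1 was not tested.

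Clock genes differed between the wild-type libraries. Of 14 tested, 3 lay above 0 and 11 below it, at a median log2 fold change of -0.68, and none was called. This list, too, was made with earlier results known, so its counts are no test of the clock. Only Cry2, a repressor gene of the clock, had groups that did not overlap among the 14, at 4.29, 4.13 and 6.21 FPKM in the knockout and 9.11, 10.68 and 7.17 in wild type, where 4.14% of genes tested were lower in this way. Per1 was at 12.4 ± 4.09 FPKM in the knockout and 24.8 ± 9.29 in wild type, Per2 at 6.20 ± 2.04 FPKM in the knockout and 14.5 ± 8.10 in wild type, and the activator gene Npas2 at 16.01 ± 4.13 FPKM in the knockout and 9.40 ± 7.03 in wild type. The large SDs of the wild type came from wild-type replicate 3, which read 5.75 FPKM for Per2 against 21.70 and 16.13 in wild-type replicates 1 and 2.

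**Figure D5:**
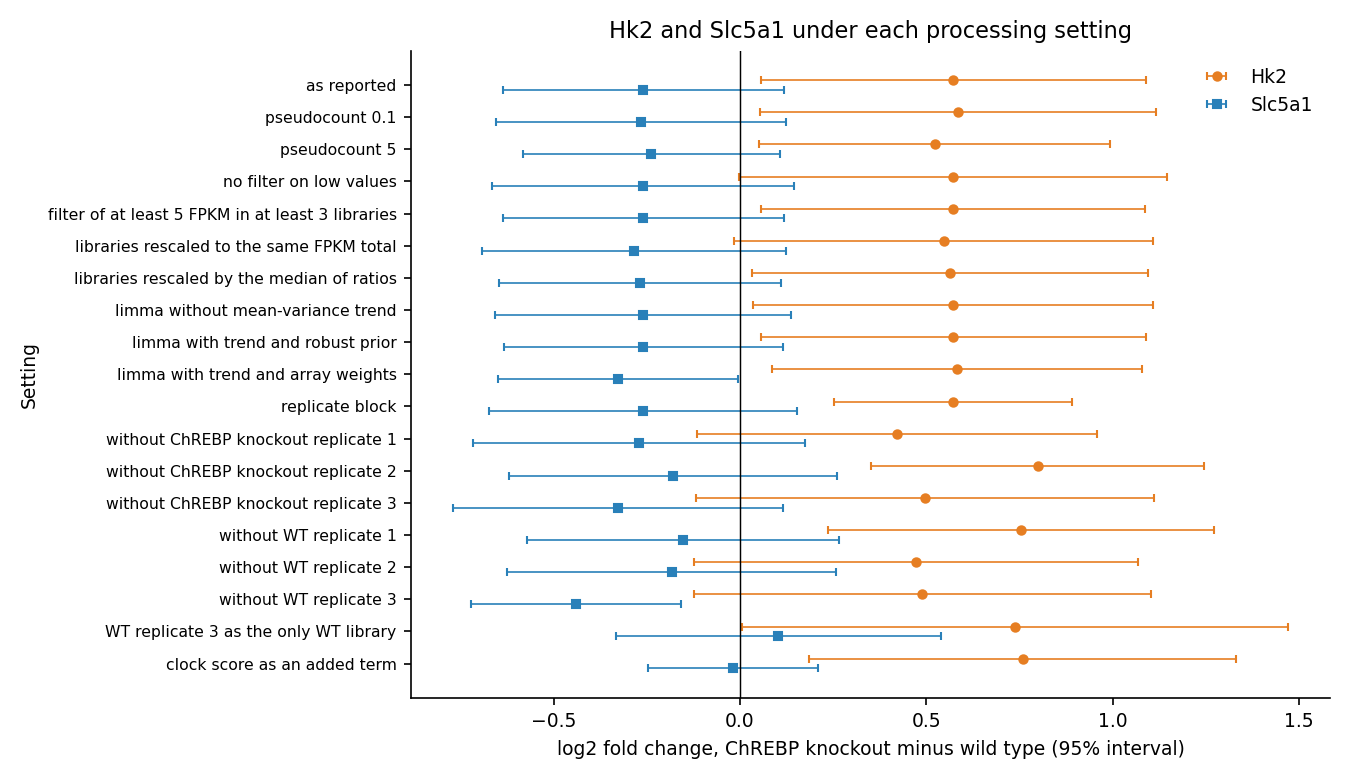
Log2 fold change, ChREBP knockout minus wild type, of Hk2 (orange circles) and Slc5a1 (blue squares) with 95% limma intervals, as reported and under 18 other settings. Hk2 lies between 0.42 and 0.80 in all of them, and Slc5a1 lies between -0.44 and 0.10, above 0 with wild-type replicate 3 as the only wild-type library.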

How the data were processed

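Poly-A RNA of distal colon from 3 ChREBP knockout and 3 wild-type mice was sequenced, and groups came from the genotype label. The authors deposited 1 table of FPKM values for 19844 genes. HISAT2, RSEM and mm39 are listed in the submitters' processing notes, with roles, versions and strand setting not given in the sources used here. How reads of paralogs were divided could move low members such as Hk3 and Hkdc1.

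On these values limma 3.58.1 (R 4.3.3) was run as log2(FPKM + 1) on genotype alone, with a variance trend, two-sided tests and Benjamini-Hochberg adjustment, over the 13247 genes that reached 1 FPKM in 3 or more libraries. The series' design text gives 3 mice per group, with no litter or cage named. Slc2a2, Hk3 and Hkdc1, below the filter, were planned to be given with no test. The exact permutation test over libraries was added for them, and its smallest possible p of 0.1 means that it could call none. The members, the gene lists (133 of 136 listed genes matched) and the rule for named genes were chosen with earlier results of these data known. That rule takes the members, Mlxipl, all listed carriers and glucose 6-phosphate enzymes, up to 4 genes of smallest p of each other list, and the 3 nearest profiles of the 2 most variable tested members, predicted genes left out. Some genes that the rule takes are not reported here. Dbp, Tef, Hlf, Ciart and the pancreas and Y-linked genes were singled out after their values were seen. The limma fit was checked on simulated data, with planted changes larger than that of Hk2 in genes above 5 FPKM. The check therefore does not cover the smaller changes or the low members reported here.

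Depth was estimated from 350 non-coding genes of up to 150 bases, whose values step by whole reads, with a length offset of 36 bases. It placed 83.3% to 89.3% of values within 0.05 of a whole number, and read numbers given for members are approximate, from the longest matched transcript and for counting scale alone. Symbols came from the file and a RefSeq table of GRCm38.p6 (19794 identifiers matched, 27 date-like symbols restored), and tables were made with Python 3.11.15, pandas 2.3.3 and numpy 2.4.6, and figures with matplotlib 3.10.9. Alternatives changed the pseudocount, filter, scaling, variance model, replicate block and libraries.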

Additional observations from a re-analysis of the deposited data

How the results depend on the processing

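No member was called in any of 18 alternatives (smallest limma adjusted p 0.707, for Hk2 with the clock score). The number of genes called was 2 as reported, 1 with a pseudocount of 5, 0 with a filter of 5 FPKM, 0 with the clock score, 3 in 5 settings (a pseudocount of 0.1, no filter, no variance trend, a robust prior and array weights), and 0 to 1 when a library was left out, with between 321 and 917 genes at an unadjusted limma p under 0.05 over all alternatives. The labels do not say that replicate numbers pair the mice, and same-numbered libraries deviated together with correlations of 0.27, -0.10 and 0.06, not each library best with its own number. With the replicate number as a block, 0 genes were called, and no member's call changed. The sign turned for Slc5a1 with wild-type replicate 3 as the only wild-type library (0.10), and for G6pc3 with array weights (-0.04) and without wild-type replicate 3 (-0.08), while the other 5 fits that left out a library stayed above 0 (up to 0.13). In these 3 cases the cause was not tested. Leaving out 1 library moved Slc2a1 between 0.11 and 0.29, Slc2a3 between -0.22 and -0.07, Slc5a1 between -0.44 and -0.15, Hk1 between -0.27 and -0.11, and Hk2 between 0.42 and 0.80. The clock score and the fit with 1 wild-type library were added after the data were seen, and the fit with 1 wild-type library assumes that it varies like the rest. Slc2a2, Hk3 and Hkdc1 entered the test without a filter alone, where none was called (Hkdc1 -0.45, limma adjusted p = 0.986). With 3 libraries per group the log2 interval of Hk2 runs from 0.06 to 1.09. That interval included 0 with no filter and with libraries rescaled to the same FPKM total. It did so as well without knockout replicate 1 or 3, or without wild-type replicate 2 or 3. In the other settings with more than 1 wild-type library it lay above 0.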
